A study of Mus musculus with 6 samples.

Results

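Müller glia span the retina as its principal glia, and 8 genes were followed in cultures of them from mice, in 6 single-cell RNA libraries: Npvf, AI593442, R3hdml, Htra3, Pacsin1, Ptn, Akr1c18 and Kcne1l. They are 8 of the 27998 genes in the deposited matrices and 8 of the 7128 genes that reached at least 20 CPM (UMIs, the RNA molecules counted, of a gene scaled to a common total) in Müller-like cells of at least 1 library. They were picked by symbol because earlier values of these data were highest where a let-7 antagomiR and a miR-25 mimic were combined. Their ratio of that library to the control is therefore a description of the choice and is not tested. All 8 passed the level filter. Over all Müller-like cells, 7 were highest in the double combination, and Npvf was highest with the let-7 antagomiR alone. The common description thus does not hold for Npvf. Other sets of cells gave further exceptions, named with the genes below.

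The cultures came from dissociated mouse retinas grown with serum and EGF, and every culture was transfected with Lipofectamine 3000. Control cultures received a control mimic and a control antagomiR. The single treatments were a let-7 antagomiR, a mimic of miR-25 and a mimic of miR-124. The double combination joined the antagomiR to the miR-25 mimic, and the triple combination added the miR-124 mimic as well, every RNA at 500 nM. The labels give neither age nor strain of the mice. Each treatment has 1 library, so no difference has a replicate check, and treatment cannot be told apart from culture or library. Genes with miR-25 sites went against the miR-25 mimic in the label of the triple combination, as given with the sites below. The label of the miR-124 mimic names neither let-7 nor miR-25, so the sites searched do not check it. Sites of miR-124 were not searched, so that mimic was checked in neither library with miR-124 in its name. These are called the miR-124-labelled and the triple-labelled library, after their labels. Genes with let-7 sites cannot decide whether the double combination received the antagomiR in its label, since they barely differed even in the antagomiR library.

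Müller glia support retinal neurons, take up neurotransmitter and potassium, and can return to a progenitor-like state after injury in some vertebrates. A let-7 antagomiR binds and inhibits let-7 miRNAs, which accumulate as cells mature, and a mimic adds a miRNA. A miRNA lowers transcripts that pair with its seed, bases 2 to 8, most often in the 3′ UTR. The series design states that the effects of these RNAs on Müller gene expression and cell fate were examined.

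The mature sequences of the RNAs concerned are shown because the seed fixes which transcripts can pair, with the seed in capitals (RefSeq, GRCm38.p6).
let-7a-5p: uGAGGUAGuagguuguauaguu
let-7g-5p: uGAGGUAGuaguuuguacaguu
miR-25-3p: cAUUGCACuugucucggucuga
The let-7a seed is shared by 11 named mouse miRNAs in that table, 9 of them named let-7. The miR-25 seed is shared by 6, among them miR-92a-3p and miR-363-3p. The labels do not state the arm of the mimic, and the 3p arm of miR-25 was assumed.

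The 3′ UTRs of the 8 genes were searched for matches to these seeds. The longest annotated 3′ UTR of each gene (GENCODE vM21, GRCm38) was taken, and the 7-base matches were CTACCTC for let-7 and GTGCAAT for miR-25, each also in the form that ends in A opposite base 1. None of the 8 UTRs holds a let-7 site, where 14.8% of 20979 genes hold one in either form. Only AI593442 holds miR-25 sites, 2 in a 3′ UTR of 4634 bases, where 12.7% of genes hold one, so 1 of 8 is near that share. The sites are printed with 28 bases each, the 7-base match in capitals; the last A of the first match lies opposite base 1 of the miRNA and does not pair.
AI593442 site at chr9:52675030-52675057, minus strand: cattcaaggcaTGCAATAataatcccct
AI593442 site at chr9:52673313-52673340, minus strand: cagcccaatgGTGCAATtggtgcagtgt
The other 7 UTRs run from 158 bases (R3hdml) to 2947 bases (Pacsin1), against a median of 954 bases over all genes. A match is a description and no match says only that these letters are not in the annotated UTR.

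Site genes served as a check on the labels, as medians of the log2(CPM + 5) ratio to control in Müller-like cells with no correction for UTR length. The 1117 genes with a miR-25 site differed from the 5719 without by -0.11 in the miR-25-mimic library and by -0.16 in the double combination. In the triple-labelled library, whose label names the miR-25 mimic, the difference was 0.08, the same as in the miR-124-labelled library. The 1191 genes with a let-7 site differed from the others by 0.02 in the antagomiR library and by -0.0050 in the double combination. They differed by 0.12 in the miR-124-labelled library, whose label names no let-7 antagomiR, and by 0.05 in the triple-labelled library, whose label names it. The let-7 difference was small even in the antagomiR library, so these genes are a weak check. They cannot decide whether the double combination received the antagomiR. Sites of miR-124 were not searched, so the miR-124 mimic named in the labels was not checked.

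The libraries gave 2721 to 5158 kept cells with median depths of 3472.5 to 5873.5 UMIs, and the matrix of the double combination was read only in part, 3014 of its 5141 barcodes. Pairs of libraries shared 9 to 33 cell barcodes before filtering. Müller-like cells numbered 1287 in the control, 1460 in the antagomiR library, 2870 in the miR-25-mimic library, 1212 in the miR-124-labelled library, 1364 in the double combination and 2198 in the triple-labelled library. They form 3 clusters, led by Lcn2, Grem1 and Rlbp1, and 15, 9 and 16 of 20 Müller glia markers stood 2-fold or more over their median cluster. Some clusters not called Müller-like had more than the Grem1-led one. These were the neuron- or progenitor-like cluster with 12, an unnamed Mgp-led one with 12 and the unnamed Bglap2-led one with 10. The naming also used the leading genes, so the Müller name of the Grem1-led cluster is the weakest of the 3. The 8 genes were left out of the variable genes used for clustering, yet Akr1c18, Npvf, AI593442 and R3hdml count among the 10 genes that lead the Grem1-led cluster. The Grem1-led cluster made up 44.0% of Müller-like cells in the control, 48.7% in the antagomiR library, 37.4% in the miR-25-mimic library, 14.3% in the miR-124-labelled library, 69.5% in the double combination and 6.14% in the triple-labelled library. The Rlbp1-led cluster, 705 cells in the miR-124-labelled library and 1748 in the triple-labelled one, had 28 or fewer in each other library. The Müller-like class thus holds different cells from library to library. Values within clusters are given beside those of the class for part of the genes and contrasts.

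**Figure D1:**
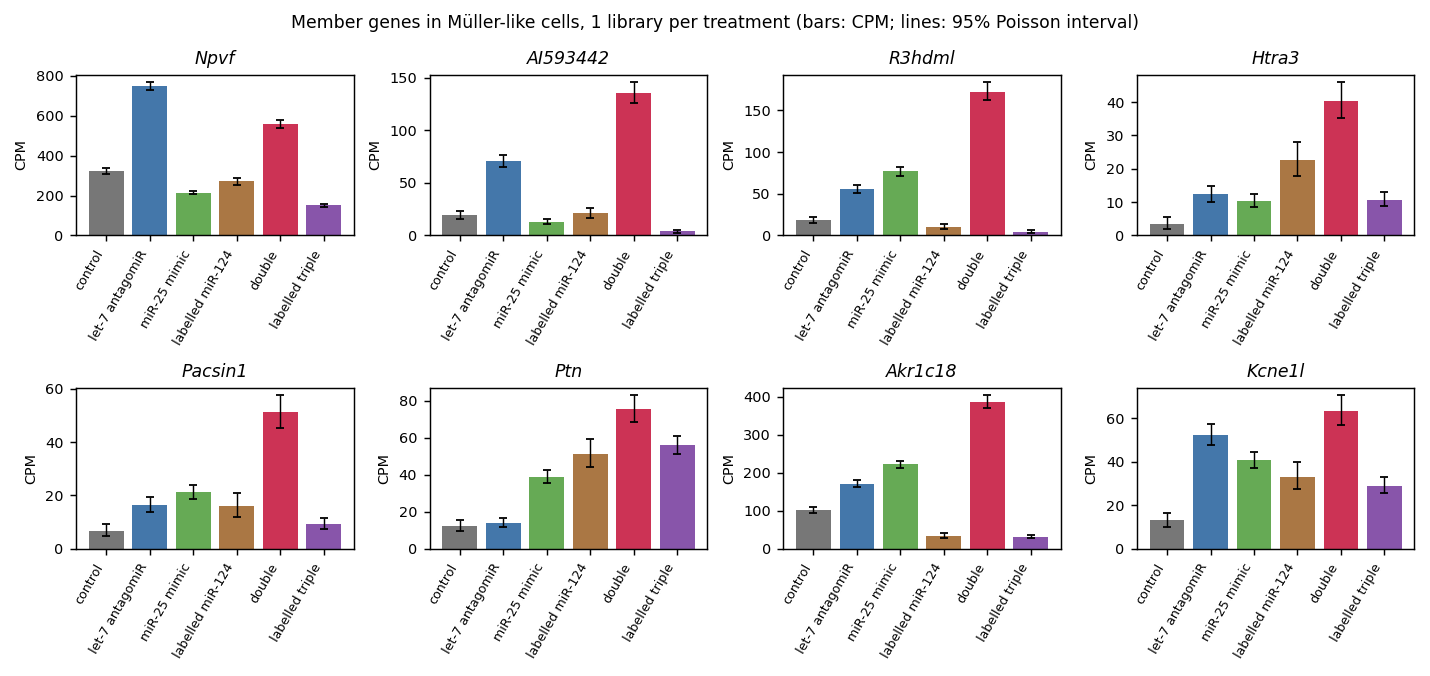
CPM of each of the 8 genes in Müller-like cells of the 6 libraries, 1 bar per library on its own linear axis, with lines for the exact 95% Poisson interval, which covers counting error only. The double combination is the highest bar in 7 panels, and in the Npvf panel the let-7 antagomiR bar at 750 CPM is above it.

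Against the control, 7 of the 8 genes were at least 2-fold higher in the double combination on the log2(CPM + 5) scale, where 0.645% of the 7128 genes were. The rule used this contrast, and nothing is read from that count. Among 6820 genes ranked by this ratio, R3hdml was rank 2 and Akr1c18 rank 8, with the members other than Npvf filling the ranks between them, and Npvf was rank 96. Just outside the list, Acta1, a skeletal muscle actin, was rank 1 at 101 CPM against 8.13 in the control, and Ccl2, a chemokine, was rank 9 at 108 against 28.5. The double combination was the highest of the 6 libraries for 22.4% of genes.

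Npvf, Ptn, Htra3 and R3hdml encode secreted products. Npvf, the precursor of RFamide-related peptides that act on neuropeptide FF receptors, stood at 321 CPM in the control, 750 in the antagomiR library, 215 in the miR-25-mimic library, 271 in the miR-124-labelled library, 559 in the double combination and 150 in the triple-labelled library. Npvf was thus 1.74-fold over control in the double combination (counting interval 1.64 to 1.85) and 0.746 of the level in the antagomiR library alone (0.714 to 0.778). Few cells carried much of it. The 10 cells with most Npvf held 27.7% of its Müller-like UMIs in the control, 16.2% in the antagomiR library, 17.2% in the double combination and 39.5% in the triple-labelled library, where 1 cell had 150 UMIs.

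Ptn encodes pleiotrophin, a heparin-binding growth factor. It stood at 12.3 CPM in the control and 13.9 in the antagomiR library, and at 38.9 in the miR-25-mimic library, 51.1 in the miR-124-labelled library, 75.2 in the double combination and 55.8 in the triple-labelled library. The libraries with a miR-25 mimic or a miR-124 label were therefore the high ones. The interval of the ratio of let-7 antagomiR to control, 1.13 (0.828 to 1.55), includes 1, and so does that of the triple-labelled and miR-124-labelled libraries to each other, 1.09 (0.918 to 1.30). Fibroblast-like cells of the control, at 16.0 CPM, were above the Müller-like level of that library. Over all kept cells the triple-labelled library was highest for Ptn, and the double combination was rank 3 of 6.

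Htra3, a secreted serine protease of the high-temperature requirement family, was at 3.40 CPM in the control from 18 UMIs, 12.4 in the antagomiR library, 10.2 in the miR-25-mimic library, 22.6 in the miR-124-labelled library, 40.4 in the double combination and 10.7 in the triple-labelled library. The control was lowest, and at the 4.13 CPM of its fibroblast-like cells, so the ratio of 11.9 (7.34 to 20.4) has a small denominator. No control cell had more than 1 Htra3 UMI. Within the Lcn2-led cluster the miR-124-labelled library was highest, at 21.6 CPM against 17.4 in the double combination. The middle of the order was not resolved, since the intervals for let-7 antagomiR over the triple-labelled library, 1.15 (0.865 to 1.54), and for that library over miR-25 mimic, 1.05 (0.790 to 1.39), include 1.

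R3hdml encodes a predicted secreted protein of the CAP superfamily. R3hdml was at 18.3 CPM in the control, 55.8 in the antagomiR library, 76.7 in the miR-25-mimic library, 10.3 in the miR-124-labelled library, 172.6 in the double combination and 4.52 in the triple-labelled library. All 5 neighbouring pairs in this order differed beyond the counting interval. The ratio of the double combination was 9.41 to control (7.63 to 11.7), 3.09 to let-7 antagomiR (2.77 to 3.46) and 2.25 to miR-25 mimic (2.05 to 2.47). To miR-25 mimic it was 1.48 (1.33 to 1.64) in the Grem1-led and 2.25 (1.79 to 2.82) in the Lcn2-led cluster.

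Akr1c18 is the enzyme of the group, a 20-alpha-hydroxysteroid dehydrogenase that inactivates progesterone. Its level was 101 CPM in the control, 171 in the antagomiR library, 222 in the miR-25-mimic library, 33.4 in the miR-124-labelled library, 387 in the double combination and 31.6 in the triple-labelled library. The order of the first 4 libraries is that of R3hdml, and the miR-124-labelled and triple-labelled libraries were low and did not differ beyond counting error (ratio 1.06, 0.844 to 1.32). The double combination was 1.74 times miR-25 mimic in the class (1.64 to 1.84). Within clusters this was 1.33 (1.25 to 1.43) in the Grem1-led and 1.12 (0.966 to 1.30) in the Lcn2-led one.

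The remaining genes act at membranes or have no known role. Pacsin1, an F-BAR protein that bends membranes and binds dynamin in endocytosis, was at 6.62 CPM in the control, 16.6 in the antagomiR library, 21.1 in the miR-25-mimic library, 16.0 in the miR-124-labelled library, 51.3 in the double combination and 9.15 in the triple-labelled library. Control and the triple-labelled library were lowest, with an interval of their ratio, 0.919 to 2.12, that includes 1. Kcne1l encodes a small accessory subunit of voltage-gated potassium channels. It was at 13.04 CPM in the control, 52.5 in the antagomiR library, 40.6 in the miR-25-mimic library, 33.1 in the miR-124-labelled library, 63.6 in the double combination and 29.0 in the triple-labelled library. Within the Müller-like class only the control was low. There the double combination was 1.21 times let-7 antagomiR (1.05 to 1.40), the smallest lead of the 7 genes over the second library. Within clusters this ratio was 1.07 (0.914 to 1.26) in the Grem1-led and 1.12 (0.804 to 1.55) in the Lcn2-led one, and both intervals include 1. In the Lcn2-led cluster the triple-labelled library was highest, at 39.4 CPM against 38.3 in the double combination. Kcne1l also counts among the 10 genes that lead the unnamed Bglap2-led cluster, left out of the class, at 160 CPM. In that cluster let-7 antagomiR was highest at 200 CPM and the control stood at 157. The double combination, with 26 cells there, was rank 3 of 6.

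AI593442, a protein-coding gene named here without a role, was at 19.5 CPM in the control, 70.9 in the antagomiR library, 12.9 in the miR-25-mimic library, 20.8 in the miR-124-labelled library, 135.9 in the double combination and 3.73 in the triple-labelled library. The miR-25 mimic alone was below control (ratio 0.662), while the double combination was above let-7 antagomiR alone (1.92, 1.72 to 2.14). The value with the mimic alone is one of the whole class, where Grem1-led cells, which hold most of this gene, were 37.4% against 44.0% in the control. Within that cluster the ratio was 0.767 (0.586 to 1.01) and in the Lcn2-led cluster 1.65 (0.537 to 6.73), and both intervals include 1. The double combination was above let-7 antagomiR in both, by 1.37 (1.23 to 1.53) and 11.1 (5.50 to 24.9). Interaction of the RNAs cannot be told apart from a difference between cultures.

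**Figure D2:**
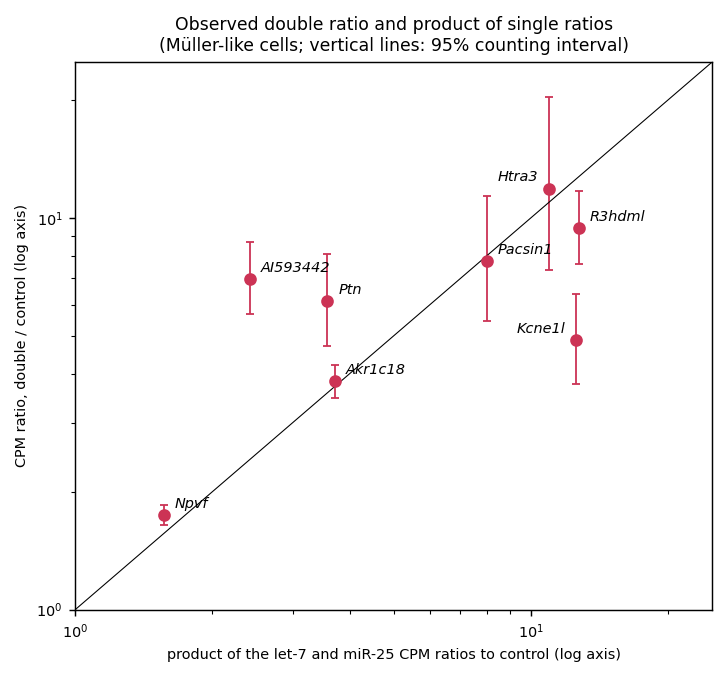
CPM ratio of the double combination to control (y, log axis, lines for the 95% counting interval) against the product of the let-7 antagomiR and miR-25 mimic ratios to control (x, log axis) in Müller-like cells, with a line of equality. AI593442 and Ptn sit above the line, Kcne1l and R3hdml below it, and the interval of Npvf lies just above.

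The 2 single treatments can be set beside the double combination. With let-7 antagomiR, 5 of the 8 genes were at least 2-fold over control, where 0.182% of all genes were, and in the miR-25-mimic library 5 were, where 0.295% were. These contrasts share the control library with each other and with the contrast used by the rule, so a low control raises all 3. The double combination was at least 2-fold over let-7 antagomiR for 5 genes (0.407% of all genes) and over miR-25 mimic for 5 (0.379%), and these contrasts share the double combination with the rule. Counts within clusters differed. For let-7 antagomiR over control they were 6 in the Grem1-led cluster (0.371% of genes) and 1 in the Lcn2-led cluster (0.127%), and for miR-25 mimic over control 5 (0.429%) and 4 (0.326%). For the double combination over let-7 antagomiR they were 4 (0.414%) and 5 (0.722%), and over miR-25 mimic 2 (0.257%) and 4 (0.326%). If single ratios multiplied, AI593442 would be at 2.41 times control and stood at 6.98, a log2 departure of 1.53 (1.14 to 1.93). The expected and observed ratios of Ptn were 3.57 and 6.12 (departure 0.78, 0.30 to 1.25). Kcne1l was below its product, 4.88 against 12.5 (departure -1.36, -1.78 to -0.95), as was R3hdml, 9.41 against 12.7 (-0.43, -0.78 to -0.09). Npvf departed by 0.15 (0.05 to 0.26), and the intervals of Htra3, Pacsin1 and Akr1c18 include 0. Within clusters several departures differed from those of the class. Npvf was below its product in both, by -0.23 (-0.35 to -0.11) in the Grem1-led and -0.31 (-0.58 to -0.05) in the Lcn2-led cluster. R3hdml departed by -1.13 (-1.52 to -0.73) in the Grem1-led cluster and by 0.23 with an interval that includes 0 in the Lcn2-led one, and Akr1c18 by -0.35 (-0.54 to -0.16) in the Grem1-led cluster. AI593442 and Ptn stayed above their products in both clusters, at 0.84 and 1.36 in the Grem1-led and 2.76 and 1.26 in the Lcn2-led one, and Kcne1l below it at -1.35 and -1.97, all with intervals that leave out 0. Over all 7128 genes the median departure was -0.04, with quartiles at -0.24 and 0.14, 3.40% above 0.5 and 6.52% below -0.5. The control enters the departure too, so a control value that is low by chance lowers it. The genes were picked for high values in the double combination, which raises the departure. Departures above 0 are thus favoured by the choice, and nothing is read from them.

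In the miR-124-labelled and triple-labelled libraries the 8 genes diverged. Calls here are on the log2(CPM + 5) scale. In the former, Htra3, Ptn and Kcne1l were at least 2-fold over control and Akr1c18 at least 2-fold under it (3 of 8 where 3.04% of genes were higher, and 1 where 1.68% were lower). In the latter, Ptn alone was at least 2-fold higher (4.42% of genes). There 4 genes, Npvf, AI593442, R3hdml and Akr1c18, were at least 2-fold lower (3.25%). These calls are of the whole class, and ratios to control within clusters, given below, differ. As plain CPM ratios to control, Pacsin1 at 2.42 in the former also passed 2-fold. So did Htra3 at 3.15 and Kcne1l at 2.23 in the latter. Against the double combination, 7 of 8 were at least 2-fold lower in the triple-labelled library, where 5.19% of genes were. Genes picked as highest in the double combination are lower elsewhere by that choice, so nothing is read from this count. R3hdml stood at 0.0262 of the double level (0.0186 to 0.0359) and AI593442 at 0.0274 (0.0187 to 0.0388), while Ptn stood at 0.742 (0.650 to 0.847). The mix of clusters moves with this contrast, since Grem1-led cells were 69.5% of one class and 6.14% of the other.

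Within the Grem1-led cluster the pattern differed by gene. AI593442 stood at 173.5 CPM in the double combination and 34.9 in the triple-labelled library, and R3hdml at 205 and 37.4, so both were lower there too (ratios 0.201, 0.133 to 0.293, and 0.182, 0.122 to 0.262). Akr1c18 was at 0.492 of the double level (0.421 to 0.572), nearer to it than over the whole class. Npvf ran the other way, at 978 CPM in the triple-labelled library against 691 in the double combination (ratio 1.42, 1.31 to 1.53), and was 1153 in the miR-124-labelled library. In that cluster the double combination was only rank 4 of 6 for Npvf. Against control there, the triple-labelled library stood at 1.95 (1.78 to 2.13) for Npvf and 1.53 (1.28 to 1.83) for Akr1c18. Its ratio was 1.42 (0.894 to 2.21) for R3hdml and 0.938 (0.593 to 1.44) for AI593442. The miR-124-labelled library stood at 2.34 of control (1.52 to 3.54) for R3hdml and 0.887 (0.686 to 1.13) for Akr1c18. These libraries hold 135 and 173 Grem1-led cells, and Htra3 there rests on 1 and 4 UMIs.

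**Figure D3:**
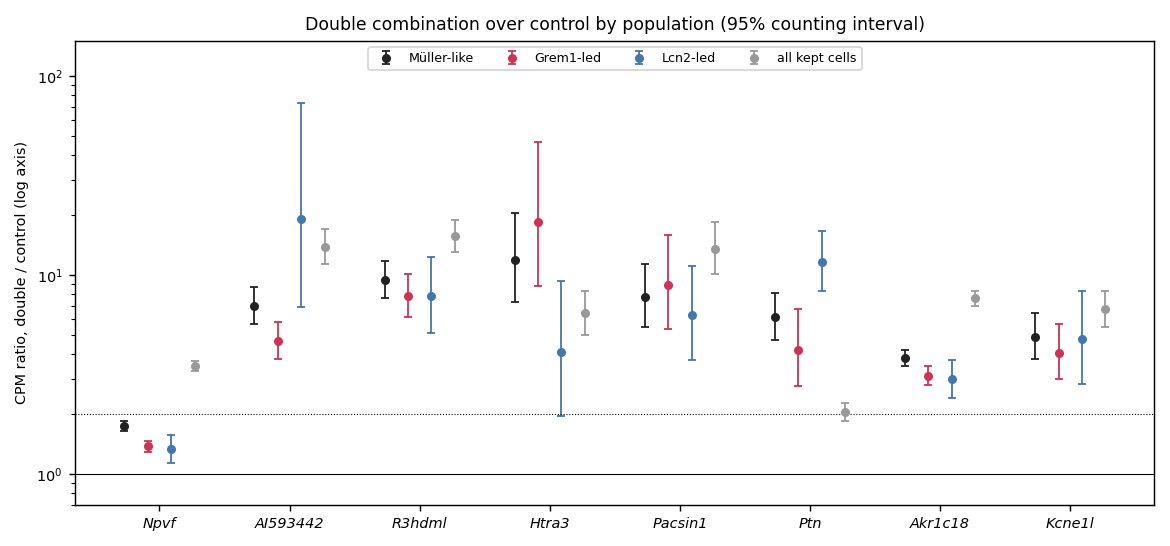
CPM ratio of the double combination to control (log axis) for each gene in Müller-like cells, the Grem1-led cluster, the Lcn2-led cluster and all kept cells, with 95% counting intervals; the dotted line marks 2-fold. The 7 genes other than Npvf lie above that line in both clusters, and Npvf at 1.38 and 1.33 lies under it.

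The ratio of the double combination to control was also taken within both large clusters. These cells are part of those the genes were picked on, so the counts follow from the choice and nothing is read from them. Of the 8 genes 7 were at least 2-fold higher in the Grem1-led cluster, where 0.8% of 7000 genes were, and 7 in the Lcn2-led cluster, where 0.836% of 7061 genes were. Npvf was at 1.38-fold (1.29 to 1.47) and 1.33-fold (1.13 to 1.56), under its 1.74 over the class. AI593442 was at 173.5 against 37.2 CPM in the Grem1-led cluster and 29.2 against 1.54 in the Lcn2-led cluster, where the control had 4 UMIs (ratio 19.0, 6.91 to 73.1). Ptn differed more in the Lcn2-led cluster, 178 against 15.4 CPM (ratio 11.6, 8.29 to 16.6), than in the Grem1-led one, 39.6 against 9.39 (4.21, 2.75 to 6.70). Both clusters come from the same 2 libraries, so this is no replication.

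The number of the 8 genes found per cell was counted as a description. The choice of genes highest in the double combination favours that library here too. With each cell thinned to 2000 UMIs, 14.7% of Müller-like cells had a UMI of at least 3 of the 8 genes in the double combination (Clopper-Pearson interval 12.8% to 16.9%), against 1.37% in the control (0.786% to 2.22%), 4% in the antagomiR library, 3.08% in the miR-25-mimic library, 0.946% in the miR-124-labelled library and 0.373% in the triple-labelled one. Thinning left out 35 to 171 cells per library, and without it the double combination had 30.3% and the control 2.95%. None of the 8 was detected in 28.4% of thinned cells of the double combination and 64.2% of the control. In fibroblast-like cells the share with at least 3 was 0% in 5 libraries (in the double combination up to 0.551% at the upper interval bound) and 0.109% in the triple-labelled one. Those cells had median depths of 3420 UMIs in the double combination and 4601.5 in the control (Müller-like 3929.5 and 3958). Within the Grem1-led cluster the double combination had 19.0% and the control 2.78%.

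**Figure D4:**
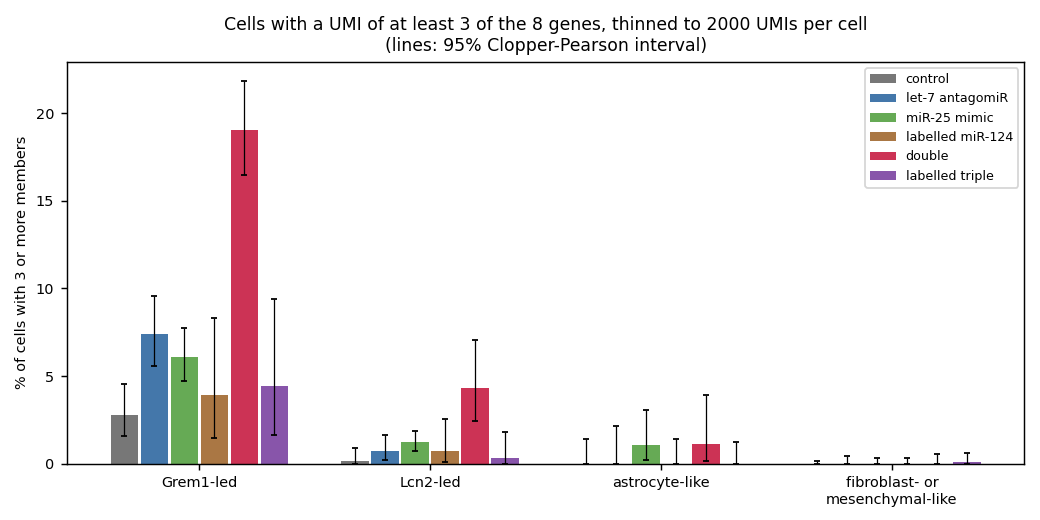
Share of cells (percent, bars) with a UMI of at least 3 of the 8 genes after thinning to 2000 UMIs per cell, by library in 4 populations, with lines for the 95% Clopper-Pearson interval. The double combination has the highest bar in the Grem1-led cluster, at 19.0%, and in the Lcn2-led cluster, at 4.34%.

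For single genes the share of thinned Müller-like cells with a UMI restates the contrast used for the choice in cells rather than UMIs. Akr1c18 was found in 13.6% of control cells and 36.3% of double-combination cells, and AI593442 in 2.32% and 15.2%. The same shares in fibroblast-like cells, which serve as a reference for free RNA, were 0.291% and 3.14% for Akr1c18 and 0% and 0.449% for AI593442. Npvf was in 20.3% of control Müller-like cells, 28.9% in the antagomiR library and 29.7% in the double combination, so its lead in the antagomiR library lay in UMIs per positive cell, 4.40 against 3.38 after thinning. Fibroblast-like cells, too, were higher in the double combination, with Npvf at 19.6 CPM against 2.24 in the control. This is a small part of the Müller-like 559 CPM.

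Ptn ran in different directions by cell class, and it counts among the 10 genes that lead the astrocyte-like cluster. Astrocyte-like cells had 304 CPM in the control, 381 in the antagomiR library, 393 in the miR-25-mimic library, 1623 in the miR-124-labelled library, 209 in the double combination and 1766 in the triple-labelled library. There the double combination was lowest, at 0.687 of control (0.573 to 0.820), where in Müller-like cells it was highest. The astrocyte marker list summed to 82.8 CPM in control Müller-like cells, and 72.3 in the double combination. Led by Gfap, it summed to 539 in the miR-124-labelled library and 1226 in the triple-labelled one. Gfap alone was at 470 and 1129 CPM in those 2 libraries. S100b was at 34.3 and 43.9 CPM against 7.56 in the control, while Pax2 was lower, at 0.571 and 0.339 against 0.945. Ptn and the sum of this list, mostly Gfap, were thus both high in those 2 libraries. In the double combination the sum was not above control. Whether cell mixing contributed was not tested.

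**Figure D5:**
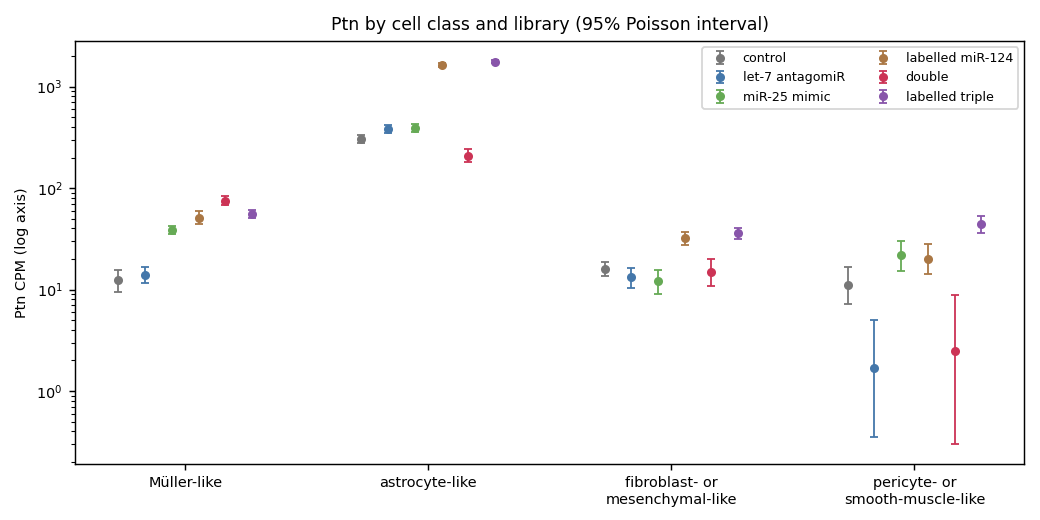
Ptn CPM (log axis) in 4 cell classes, 1 point per library with the exact 95% Poisson interval. Among astrocyte-like cells the miR-124-labelled and triple-labelled libraries are near 1623 and 1766 CPM and the double combination at 209, while among Müller-like cells the double combination is highest at 75.2.

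Other markers in Müller-like cells moved as follows. The 20 Müller glia markers summed to 14649 CPM in the control, 14989 in the antagomiR library, 15738 in the miR-25-mimic library, and 12128 in the double combination. They summed to 20793 in the miR-124-labelled library and 23600 in the triple-labelled one. Rlbp1 was at 87.3 CPM in the control and 51.8 in the double combination. The 10 pericyte or smooth-muscle markers summed to 4337 and 6169, and the 10 fibroblast markers to 52.4 and 70.6. The pericyte marker Rgs5 ran against the sum of its list, at 7.37 and 6.61. The part of these in the members' values was not tested.

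Relatives and partners of the 8 genes were taken from a list. Of its 68 paralogues, receptors and partners, 25 reached the level filter, 1 stood 1.5-fold or more above control in the double combination and 1 as far below, where 3.27% and 5.05% of all genes were. The higher one was Htra1, a paralogue of Htra3, at 179 CPM in the control, 228 in the antagomiR library, 133 in the miR-25-mimic library and 320 in the double combination. The lower one was Itgav, the integrin alpha-V subunit, which can bind pleiotrophin, at 136 and 82.9 CPM. The median log2 ratio of the 25 was -0.08, against -0.01 over all genes. None of the 8 listed potassium channel subunits and partners of Kcne1l reached 20 CPM, and of 14 Ptn partners 9 did. The Npvf receptors Npffr1 and Npffr2 had 2 or fewer UMIs in the control and the double combination, and the related receptor Qrfpr was at 14.0 and 20.9 CPM.

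Levels of the 8 genes across 14 sums of a library and a Müller-like cluster with at least 50 cells were compared as a description; the points share libraries and depth. R3hdml and Akr1c18 ran most alike (Pearson r 0.94), followed by Npvf with Akr1c18 (0.80) and Htra3 with Pacsin1 (0.77), and Npvf and Ptn ran apart (-0.57). The genes nearest to the mean profile of the 8 were Tsc22d1 (r 0.94), Ptma (0.94), Grpel1 (0.92), Limk2 (0.92) and Mdh2 (0.91). Tsc22d1, which stood at 217 CPM in the control and 685 in the double combination, is a leucine-zipper regulator. The nearest to single genes were Pdrg1 for Akr1c18 (0.98), Prrg1 for R3hdml (0.96), Srpx for Npvf (0.95), Tmem208 for Htra3 (0.92), Chchd2 for Pacsin1 (0.92), Klhdc8b for Ptn (0.90), Nrep for AI593442 (0.89) and Txnl4a for Kcne1l (0.87).

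Promoter windows of the closest pair and of Npvf are shown, since these ran alike; each runs from 250 bases before to 50 after the RefSeq start (GRCm38.p6), with motif letters in capitals.
R3hdml, chr2:163492068-163492367, plus strand: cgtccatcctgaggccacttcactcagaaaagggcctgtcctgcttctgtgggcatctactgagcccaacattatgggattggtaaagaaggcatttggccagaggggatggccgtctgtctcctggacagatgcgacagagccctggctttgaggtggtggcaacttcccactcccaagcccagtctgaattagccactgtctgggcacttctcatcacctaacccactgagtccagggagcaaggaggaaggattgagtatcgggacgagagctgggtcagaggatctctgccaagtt
Akr1c18, chr13:4150597-4150896, minus strand: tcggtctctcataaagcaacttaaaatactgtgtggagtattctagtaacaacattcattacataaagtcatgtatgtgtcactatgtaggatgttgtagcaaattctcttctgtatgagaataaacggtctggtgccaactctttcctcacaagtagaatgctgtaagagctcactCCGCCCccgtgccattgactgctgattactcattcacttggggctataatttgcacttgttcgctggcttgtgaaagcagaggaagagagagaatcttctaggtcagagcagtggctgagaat
Npvf, chr6:50654396-50654695, minus strand: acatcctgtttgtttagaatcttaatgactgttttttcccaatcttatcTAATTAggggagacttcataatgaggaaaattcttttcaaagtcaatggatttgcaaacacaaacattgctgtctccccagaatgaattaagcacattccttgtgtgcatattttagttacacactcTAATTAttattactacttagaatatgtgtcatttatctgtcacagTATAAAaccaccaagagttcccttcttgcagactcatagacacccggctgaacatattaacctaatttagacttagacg
The motifs searched, on both strands and by exact letters, were the TATA box TATAAA, the AP-1 motif TGANTCA, the E-box CAGCTG, the SOX motif ATTGTT, the homeobox motif TAATTA, the GC box GGGCGG and the CRE motif TGACGTCA. R3hdml holds none of them, Akr1c18 a GC box at -73 from the start, and Npvf TATAAA at -29 with TAATTA at -201 and -74. TATAAA occurs in 13.6% of 32851 promoters of this length, TAATTA in 5.29% and GGGCGG in 35.7%. Over all 8 genes 4 windows hold GGGCGG and only Npvf holds TATAAA. GC content is 34.3% for Npvf, 42.3% for Akr1c18, 55.3% for R3hdml and 71.7% for Pacsin1, against a median of 52.7%. R3hdml and Akr1c18 thus share none of the searched motifs.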

How the data were processed

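UMI counts per gene and cell were deposited by the authors as raw counts; the submitters' processing notes list Cell Ranger 2, Seurat 2 and mm10. Per the labels' protocols, 10x V2 chemistry was used. Which cell filters came before deposit is not stated. The matrix of the double combination is truncated: 5094879 of 8637523 entries were read.

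A cell was kept if it had 500 or more genes and a mitochondrial share of 10% or less. Scrublet calls (scanpy 1.11.5) were removed; it marked 0.111%, 0.193% and 0.147% of cells in the control, miR-25 and triple-labelled libraries, so doublet calling did not work there. Cells were clustered without the 8 genes (2000 variable genes, 30 principal components, Leiden resolution 0.6) and named from markers. A Bglap2-led cluster stayed unnamed, because 2 progenitor markers against 1 Müller marker were among its top 10 genes.

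UMIs were summed per library and population and scaled to CPM. A 2-fold call is on the log2(CPM + 5) scale over 7128 genes; ratios printed are of CPM. All 95% intervals (exact Poisson for levels, conditional for ratios, a normal approximation on the log scale for departures, Clopper-Pearson for shares) cover counting error alone. With 1 library per treatment there is no test. The calculation was tested on simulated data. Members and lists were chosen with earlier results of these data known. Besides members, the text names listed relatives changed 1.5-fold, the 5 genes nearest the mean profile and the nearest to each member; Acta1, Ccl2, the receptors of Npvf and single markers were named after their values were seen. The alternatives are given in the closing section.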

Additional observations from a re-analysis of the deposited data

Results flagged for a closer look

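AI593442 differed in direction between treatments that share the miR-25 mimic: the mimic alone was at 0.662 of the control in Müller-like cells, and the double combination was at 1.92 times let-7 antagomiR alone. Within clusters the ratio of the mimic alone was 0.767 (counting interval 0.586 to 1.01) in the Grem1-led and 1.65 (0.537 to 6.73) in the Lcn2-led one, so the difference in direction rests on the class value. The difference was not tested.

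Ptn differed in direction between cell classes for the double combination against control, at 6.12 in Müller-like cells and 0.219 in pericyte- or smooth-muscle-like cells. The latter rests on 2 UMIs against 24 (counting interval 0.0251 to 0.882), and the difference was not tested.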

How the results depend on the processing

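The count of members at least 2-fold over control in the double combination was 7 or 8 under all 10 alternatives run, and no member's log2 ratio changed sign. With a pseudocount of 1 CPM, 3 members rather than 1 were at least 2-fold over control in the triple-labelled library, and 71 genes rather than 46 in the double combination. Over all kept cells 3 members rather than 5 were at least 2-fold higher in the double combination than with miR-25 mimic. In the miR-124-labelled library 1 rather than 3 were at least 2-fold over control, and 83 genes passed in the double combination. Equal weights of the Müller-like clusters gave 2 members for the triple-labelled library. A stricter cell filter, 1000 genes or more and a mitochondrial share of 5% or less, left 94 to 700 Müller-like cells per library. There 3 members rather than 5 were at least 2-fold higher in the double combination than with let-7 antagomiR. At least 2-fold over control were 3 rather than 5 with miR-25 mimic and 0 rather than 3 in the miR-124-labelled library. In the double combination 163 genes passed. Subtracting the fibroblast-like level, which like including the Bglap2-led cluster was added after the data were seen, gave 625 genes. The cause of these shifts was not tested. The log2 ratio of Ptn ran from 0.94 over all kept cells to 3.71 with that subtraction, and that of Npvf from 0.43 with equal cluster weights to 1.75 over all kept cells, against 2.21 and 0.79. Median-of-ratios scaling, Leiden resolution 0.3, members allowed among the variable genes, the 4% highest Scrublet scores left out and the Bglap2-led cluster included moved none of these counts by over 1.5 times. The log2 ratio of Kcne1l, 1.93 in the main run, was 1.53 with the Bglap2-led cluster included and 1.54 at Leiden resolution 0.3. No replicate could be left out, with 1 library per treatment. No paired analysis was possible because each treatment has 1 library. Depth limits Htra3, which has 18 UMIs in the control.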
